A study of Mus musculus with 10 samples.

Results

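The genes Egr1, Egr2, Egr3, Egr4, Nr4a1, Nr4a2, Nr4a3, Npas4 and Arc are early genes that cells switch on when they are active, and they are described here in pancreatic islets of mice. These 9 genes, of 27665 in the deposited table, were matched by their gene symbol. They were chosen by earlier results of the same diet comparison, so their difference between the diets is given as a description with no p-value. RNA was sequenced from islets of 10 male C57BL/6J mice, an inbred laboratory strain, that were 8 to 10 weeks old and had been fed for 4 weeks. The western diet group held 5 mice, numbers 1, 2, 4 and 5 of cage 4 and number 5 of cage 2. The standard chow group held 5 mice, numbers 1 to 5 of cage 3. No cage held both diets, so diet and cage cannot be told apart. Each mouse gave 1 library, and the libraries held 16901190 to 23902681 counted reads on western diet and 16532518 to 23314954 on standard chow. The islets were processed directly after isolation, so the levels are those of isolated whole islets, and no step of the protocol separated their cell types.

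As background, when glucose closes the potassium channels of a beta cell its membrane depolarises and calcium enters through voltage-gated channels. Calcium and cAMP then act through calmodulin-dependent and other kinases on the transcription factor CREB, and through the ERK kinase cascade on serum response factor, SRF. Both factors are already present and switch on immediate early genes within minutes, with no need for new protein. The Egr genes encode zinc finger transcription factors, the Nr4a genes encode orphan nuclear receptors, Npas4 encodes a transcription factor of the bHLH-PAS family that depends on calcium for its induction, and Arc encodes a cytoskeleton-associated protein best known from synapses. Transcripts of such genes are short-lived, so their level follows the last stimulus closely.

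CREB binds a palindrome, the CRE, or its core TGACG, and Npas4 and the Nr4a genes are textbook CREB targets. Promoters are shown here for Npas4, Nr4a1 and Egr2, which were lower on western diet, and for Nr4a2, which was not. The RefSeq table of mouse promoters (GRCm38.p6) matched 6 of the 9 genes, Egr2, Egr4, Nr4a1, Nr4a2, Nr4a3 and Npas4. Capitals mark the CRE core (TGACG, or CGTCA on the other strand) and, where present, the EGR site GCGNGGGCG on either strand. Each sequence runs 5′ to 3′ on the strand of its gene. That of Npas4 is chr19:4990129-4990158 on the minus strand, 30 bases that begin 187 bases before the start, in a window that is also annotated as an exon of a longer transcript. That of Nr4a1 is chr15:101266596-101266845 on the plus strand, before a RefSeq start that lies 12577 bases inside the gene as the deposited table draws it. That of Nr4a2 is chr2:57124004-57124253 on the minus strand, and that of Egr2 is chr10:67535249-67535474 on the plus strand.
Npas4: ccgttcgaCGTCAcgggaTGACGtcggaag
Nr4a1: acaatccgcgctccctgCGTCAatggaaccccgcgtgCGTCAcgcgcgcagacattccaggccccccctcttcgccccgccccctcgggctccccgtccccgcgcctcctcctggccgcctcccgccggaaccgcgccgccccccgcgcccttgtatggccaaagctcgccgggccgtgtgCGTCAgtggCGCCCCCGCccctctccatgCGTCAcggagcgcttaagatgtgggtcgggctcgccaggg
Nr4a2: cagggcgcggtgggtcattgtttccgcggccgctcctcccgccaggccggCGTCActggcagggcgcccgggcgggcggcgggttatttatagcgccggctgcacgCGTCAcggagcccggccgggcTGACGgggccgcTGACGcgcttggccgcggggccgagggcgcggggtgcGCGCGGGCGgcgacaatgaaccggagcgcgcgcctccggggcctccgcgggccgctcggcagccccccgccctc
Egr2: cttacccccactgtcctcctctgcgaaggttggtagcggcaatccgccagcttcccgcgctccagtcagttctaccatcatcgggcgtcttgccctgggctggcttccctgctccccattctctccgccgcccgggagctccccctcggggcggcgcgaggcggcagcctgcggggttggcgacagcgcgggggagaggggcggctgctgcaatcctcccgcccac
In the 250 bases before the start, the CRE core was found in 5 of the 6 genes, Egr2 being the exception, and in 17.8% of the 32851 promoters of the table. Nr4a1, Nr4a2 and Nr4a3 held 4 matches each, and Egr4 and Npas4 held 2 each. The full palindrome TGACGTCA, which contains the core on both strands, was in 0 of the 6 and in 1.55% of promoters. The EGR site was in Nr4a1 and Nr4a2, 2 of the 6, against 4.7% of promoters. The CArG box, to which SRF binds, was in 0 of the 6 and in 1.47% of promoters, and the NBRE of the Nr4a receptors, AAAGGTCA, in 0 of the 6 and in 1.34%. These are matches of letters in a window and not measured binding.

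The 9 genes spanned more than 3 orders of magnitude in level. In TPM, a level per gene length scaled to the same total in each library, Egr1 was the highest with 859 ± 60.3 TPM on western diet and 1412 ± 120 TPM on standard chow (SD, n = 5 each, as throughout). On standard chow this placed Egr1 at percentile 99.8 of all genes tested. Nr4a1 came next with 127 ± 18.8 TPM on western diet and 244 ± 59.6 TPM on standard chow. Npas4 had 22.0 ± 3.82 TPM on western diet and 67.3 ± 5.09 TPM on standard chow, and Arc had 17.4 ± 2.23 TPM on western diet and 43.9 ± 7.44 TPM on standard chow. These 4 genes were separated from each other on standard chow, where no mouse's value of one gene reached into the range of the next. Nr4a2 had 15.0 ± 2.45 TPM on western diet and 14.5 ± 2.37 TPM on standard chow.

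The remaining genes, Egr4, Egr3, Egr2 and Nr4a3, were the lowest of the 9. On standard chow they stood, in that order, at percentiles 24.9, 20.6, 15.8 and 5.76 of the genes tested. Their means ran between 0.330 TPM (Nr4a3) and 0.814 TPM (Egr4) on western diet, and between 0.604 TPM (Nr4a3) and 2.82 TPM (Egr4) on standard chow. Between 4 and 96 reads per library lie behind each of these values. Neighbours in this order overlapped: Egr4 with Egr3 and Egr3 with Egr2 on both diets, and Egr2 with Nr4a3 on western diet. Npas4, Arc and Nr4a2 overlapped on western diet, where Npas4 spanned 16.6 to 26.9 TPM, Arc 13.7 to 19.4 TPM and Nr4a2 12.5 to 19.1 TPM. The order of the 9 means was the same on both diets, and the same in the authors' deposited FPKM values, which use the same gene lengths.

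**Figure D1:**
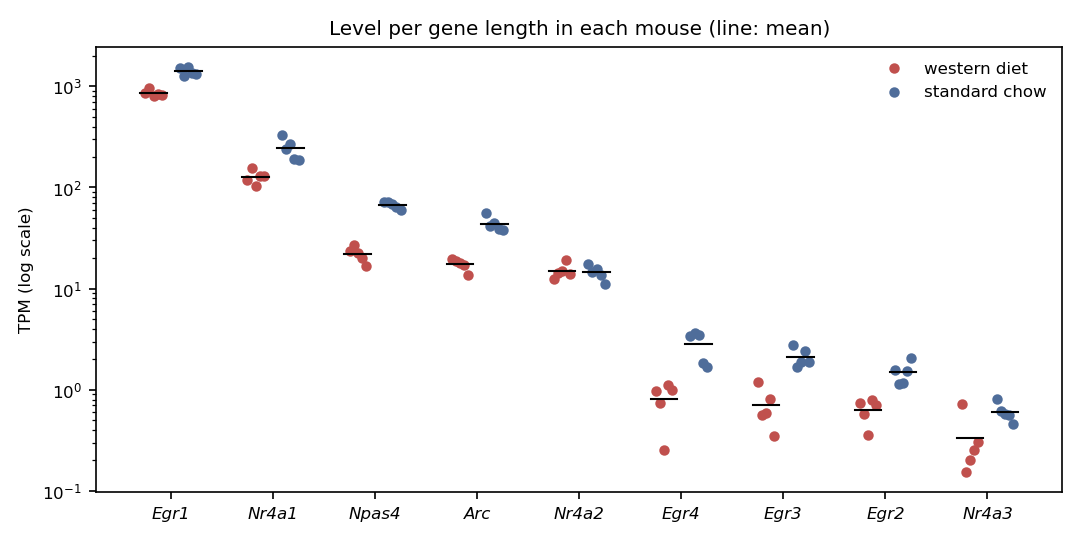
Level per gene length (TPM, log scale) of the 9 genes in each mouse, western diet left of standard chow within each gene, with a line at the mean of 5 mice. Egr1 lies highest at 859 TPM on western diet and 1412 TPM on standard chow, and Nr4a3 lowest at 0.330 TPM on western diet and 0.604 TPM on standard chow.

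Counts were tested over all 15104 genes that passed the filter on low counts, which all 9 members passed, and a gene was called at an edgeR adjusted p under 0.05. Of all genes tested 10.8% were called, 5.5% lower on western diet and 5.27% higher. Of the 9 members, 7 were called lower, 0 higher, and Nr4a2 and Nr4a3 were not called. In the same 7 genes every western diet mouse lay below every standard chow mouse, which held for 4.42% of all genes tested. The median log2 fold change was -1.19 over the 9 members and 0.005 over all genes tested. Since these values chose the members, nothing is read from the count. In whole islets fewer cells of a type and less RNA per cell cannot be told apart.

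Within the Egr family the abundant gene differed least in proportion. Egr1 (ENSMUSG00000038418, chromosome 18, 34859823 to 34864984, plus strand; coordinates are those of the deposited table, GRCm38) encodes a zinc finger factor induced by glucose in beta cells. In CPM, counts scaled to library size, it had 1748, 1862, 1600 and 1604 in mice 1, 2, 4 and 5 of western diet cage 4 and 1606 in the mouse of cage 2. The standard chow mice had 2869, 2564, 2891, 2586 and 2555 CPM, in the order of their numbers 1 to 5. The diets did not overlap, and the gap between them, from 1862 to 2555 CPM, was wider than the range within either diet. Egr1 was 1.60-fold lower on western diet (log2 -0.68 ± 0.06, SE).

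The other Egr genes are known as targets and partners in the same early response. Egr2 (ENSMUSG00000037868, chromosome 10, 67535475 to 67542188, plus strand), a regulator best known from myelination, averaged 0.940 ± 0.247 CPM on western diet and 2.17 ± 0.536 CPM on standard chow (log2 -1.19 ± 0.26, SE). Egr3 (ENSMUSG00000033730, chromosome 14, 70077203 to 70082614, plus strand), a regulator best known from muscle spindles and lymphocytes, averaged 1.36 ± 0.650 CPM on western diet and 3.96 ± 0.777 CPM on standard chow (log2 -1.53 ± 0.27, SE). Egr4 (ENSMUSG00000071341, chromosome 6, 85511121 to 85513589, minus strand), known for its role in male germ cells, averaged 0.761 ± 0.316 CPM on western diet and 2.59 ± 0.923 CPM on standard chow (log2 -1.73 ± 0.33, SE). None of the 3 overlapped between the diets, although the mice of each diet were widely spread. For Egr3 the western diet mice ran between 0.670 CPM (cage 2) and 2.40 CPM (cage 4, mouse 1), against 3.29 to 5.07 CPM on standard chow. For Egr4 the highest western diet mouse had 1.02 CPM and the lowest standard chow mouse 1.52 CPM. Summed over 5 mice, these genes rest on few reads: 94 on western diet and 215 on standard chow for Egr2, 133 on western diet and 382 on standard chow for Egr3, and 77 on western diet and 250 on standard chow for Egr4.

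The Nr4a family split. Nr4a1 (ENSMUSG00000023034, chromosome 15, 101254269 to 101274795, plus strand), the receptor that in rodent beta cells has been linked to proliferation and metabolism, had 185, 236, 191 and 164 CPM in mice 1, 2, 4 and 5 of western diet cage 4 and 198 CPM in the mouse of cage 2. The standard chow mice, numbers 1 to 5, had 482, 380, 397, 283 and 278 CPM. The diets did not overlap, but standard chow mice 4 and 5 lay much nearer to the western diet mice than did the other 3. Nr4a1 was 1.87-fold lower on western diet (log2 -0.90 ± 0.17, SE).

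Nr4a2 (ENSMUSG00000026826, chromosome 2, 57106830 to 57124003, minus strand), the receptor needed by dopamine neurons, did not share this difference. It had 22.9, 24.9, 32.6 and 27.2 CPM in mice 1, 2, 4 and 5 of western diet cage 4 and 24.8 CPM in the mouse of cage 2, against 29.5, 26.8, 26.4, 23.4 and 19.1 CPM in standard chow mice 1 to 5. The ranges overlapped between 22.9 and 29.5 CPM, and the log2 fold change was 0.08 ± 0.11 (SE). The log2 fold change was -0.01 when western diet cage 4 mouse 4 was left out and -0.003 when standard chow mouse 5 was, so it has no stable sign. Behind these values lie 2574 reads on western diet and 2416 on standard chow.

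Nr4a3 (ENSMUSG00000028341, chromosome 4, 48045153 to 48086447, plus strand), a receptor that overlaps with Nr4a1 in function, had 1.97, 0.398, 0.644 and 0.546 CPM in mice 1, 2, 4 and 5 of western diet cage 4 and 0.795 CPM in the mouse of cage 2. The standard chow mice had 2.01, 1.65, 1.43, 1.43 and 1.19 CPM. The western diet mouse 1 of cage 4 lay among the standard chow mice and the other 4 below all of them. The log2 fold change was -0.79 ± 0.36 (SE) and not called. Without that mouse it was -1.34 and called, which was 1 call in 17 alternative fits. Since this comparison chose the members, nothing is read from that call. Only 89 reads on western diet and 149 on standard chow lie behind Nr4a3.

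With these unequal differences the make-up of the Nr4a transcripts differed. Nr4a2 made up 10.6 ± 1.96% of the TPM of the 3 Nr4a genes on western diet and 5.68 ± 0.608% on standard chow. Taken against Nr4a1 within each mouse, Nr4a2 stood at 10.7, 9.11, 14.7 and 14.3% of the Nr4a1 TPM in mice 1, 2, 4 and 5 of western diet cage 4 and at 10.8% in the mouse of cage 2. In the standard chow mice it stood at 5.28, 6.09, 5.74, 7.15 and 5.94%. Every western diet mouse lay above every standard chow mouse, and this ratio within a library does not depend on how libraries were scaled. Egr1 made up 99.8% of the Egr TPM on western diet and 99.5% on standard chow, so the Egr total was in effect Egr1.

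Npas4 and Arc are known in neurons as genes tied closely to membrane activity, and neither overlapped between the diets. Npas4 (ENSMUSG00000045903, chromosome 19, 4984355 to 4989971, minus strand) had 34.8, 38.2, 28.0 and 33.2 CPM in mice 1, 2, 4 and 5 of western diet cage 4 and 23.6 CPM in the mouse of cage 2. The standard chow mice, numbers 1 to 5, had 98.3, 104.4, 95.0, 88.0 and 84.3 CPM. The highest western diet mouse, at 38.2 CPM, was far below the lowest standard chow mouse, at 84.3 CPM. Npas4 was 2.99-fold lower on western diet (log2 -1.58 ± 0.12, SE), on 3045 reads on western diet and 9146 on standard chow.

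Arc (ENSMUSG00000022602, chromosome 15, 74669083 to 74672570, minus strand) had 26.7, 25.0, 21.9 and 24.4 CPM in mice 1, 2, 4 and 5 of western diet cage 4 and 18.2 CPM in the mouse of cage 2. The standard chow mice had 72.1, 56.5, 56.6, 50.3 and 49.9 CPM. Standard chow mouse 1 stood above its cage mates, and no standard chow mouse came near the western diet range. Arc was 2.46-fold lower on western diet (log2 -1.30 ± 0.12, SE). The western diet mouse of cage 2 was the lowest of its diet for both Npas4 and Arc.

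**Figure D2:**
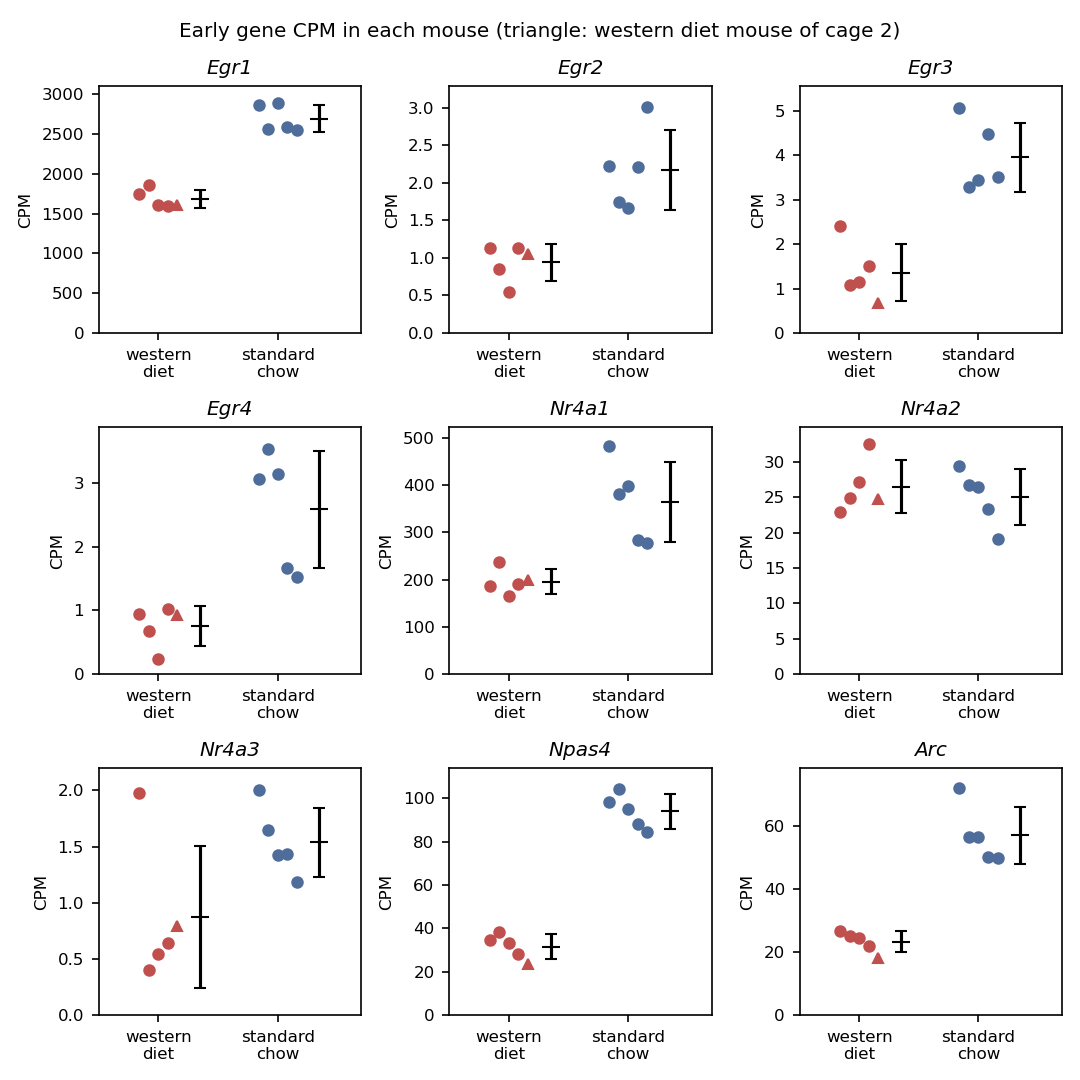
CPM of each of the 9 genes in each mouse, western diet left of standard chow, with the mean and SD of 5 mice beside the points and a triangle for the western diet mouse of cage 2. The diets do not overlap in 7 panels, while those of Nr4a2 and Nr4a3 do.

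Several heat shock transcripts also differed between the diets in the same mice. The summed CPM of the 9 members was 1856 to 2189 on western diet and 2995 to 3564 on standard chow. The summed CPM of 9 heat shock genes was 2892 to 3685 on western diet and 4352 to 5675 on standard chow, again without overlap. Of these heat shock genes 5 were called lower on western diet, beside 5.5% of all genes tested, 0 higher and 4 not called, with a median log2 fold change of -0.70. The co-chaperone gene Dnajb1 fell by 1.77 on the log2 scale (edgeR adjusted p = 2.1e-06, no overlap), to 227 ± 28.3 CPM on western diet against 772 ± 93.1 CPM on standard chow. Hspa1a and Hspa1b, nearly identical genes whose reads can be exchanged in counting, fell by 3.05 and 3.16 on the log2 scale (edgeR adjusted p = 8.3e-05 and 3.0e-04). Of the 9 heat shock genes 7 had a negative log2 fold change. Hspa8 and Hsp90aa1 went the other way, at 0.15 and 0.19 (edgeR adjusted p = 0.106 and 0.486). The heat shock list was itself drawn up with results of the comparison known, so nothing is read from its count. The part of heat shock in the result was not tested.

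The islets carried the markers of their label. Beta cell markers summed to 237724 to 272439 CPM on western diet and 227953 to 263808 CPM on standard chow. Ins2, the main insulin gene, had 177427 ± 8751 CPM on western diet and 168735 ± 8701 CPM on standard chow (edgeR adjusted p = 0.337), while the glucose transporter gene Slc2a2 was lower on western diet (log2 -0.54 ± 0.10, SE, edgeR adjusted p = 0.00748). Of 7 beta cell markers 1 was called lower, Slc2a2, and 1 higher, Iapp. Endothelial markers summed to 304 to 363 CPM on western diet and 365 to 417 CPM on standard chow with no overlap, and 1 of 6, Kdr, was called lower. Macrophage and leukocyte markers summed to 63.4 to 106 CPM on western diet and 77.0 to 96.8 CPM on standard chow, with 1 of 8 called lower. Stellate and fibroblast markers summed to 119 to 143 CPM on western diet and 121 to 222 CPM on standard chow, with 1 of 6 tested called lower, and Schwann cell and neuron markers to 136 to 184 CPM on western diet and 181 to 238 CPM on standard chow, with 1 of 4 tested called lower. Acinar markers summed to 628 to 4542 CPM on western diet and 540 to 2268 CPM on standard chow with 0 of 8 tested called. Duct markers summed to 262 to 274 CPM on western diet and 249 to 277 CPM on standard chow, with 2 of 5 tested called lower, Krt19 and Muc1. Alpha cell markers summed to 8696 to 12469 CPM on western diet and 9433 to 14350 CPM on standard chow with 0 of 5 called, and 0 of 3 delta and PP cell markers were called. No marker was at 0 in all libraries, and the part of cell make-up in the result was not tested.

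The variation among mice within each diet enters the comparison by which the genes were chosen, so it is given as a description. Egr1 was steady, with an SD of log2 CPM of 0.099 on western diet and 0.091 on standard chow, which placed it at percentile 24.0 of the spread of all genes tested. Counting error would give Egr1 an SD of 0.008 on western diet and 0.006 on standard chow, so its spread was far above counting error. With 1 library per mouse, the animal, the islet isolation and the library preparation cannot be told apart in that spread. Nr4a1 varied more, with an SD of 0.19 on western diet and 0.34 on standard chow. For Npas4 the SD was 0.27 on western diet and 0.12 on standard chow. For the 4 low genes counting alone gives an SD of 0.30 to 0.45 on western diet and 0.17 to 0.27 on standard chow, against observed values of 0.39 to 0.78 on western diet and 0.26 to 0.54 on standard chow. For Nr4a3 on standard chow the observed SD was 0.264 against 0.268 from counting, and for Egr2 on western diet 0.391 against 0.358. For Nr4a3 on western diet it was 0.780 against 0.415. Their differences among mice can be read only in part, and in the first of these cases not at all.

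Some mice stood high or low across several of the genes. How often each mouse was highest or lowest over all genes tested is not given here, so nothing is read from these counts. Standard chow mouse 5 was the lowest of its diet for 7 of the 9, all but Egr2 and Egr3, and standard chow mouse 1 was the highest for 5, Egr3, Nr4a1, Nr4a2, Nr4a3 and Arc. On western diet the mouse of cage 2 was the lowest for Egr3, Npas4 and Arc and the highest for none. Mice 1, 2 and 4 of cage 4 were each the highest for 3 genes, and different ones: Egr3, Nr4a3 and Arc in mouse 1, Egr1, Nr4a1 and Npas4 in mouse 2, and Egr2, Egr4 and Nr4a2 in mouse 4.

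**Figure D3:**
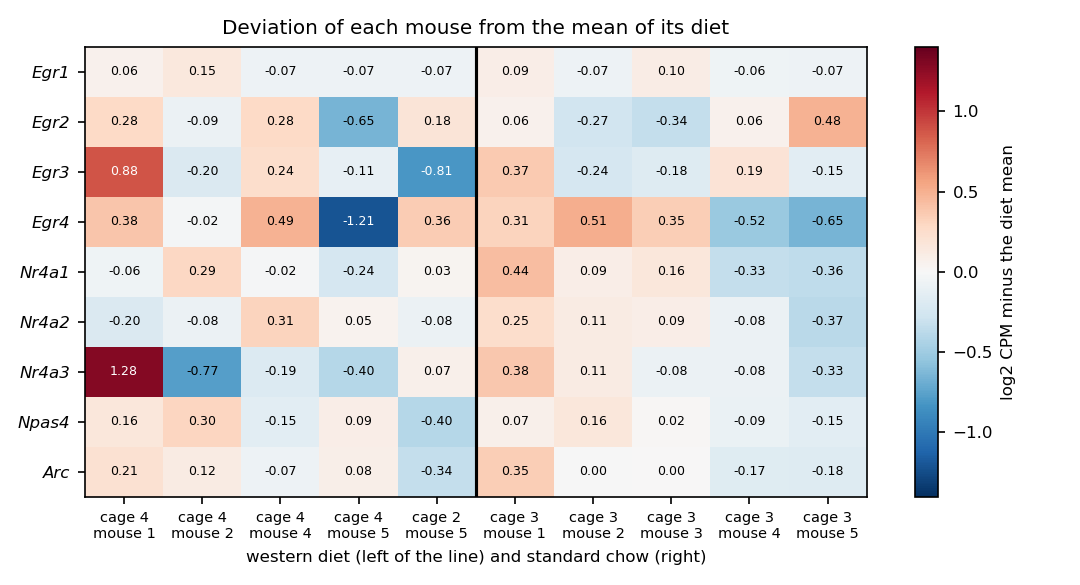
Log2 CPM of each gene in each mouse minus the mean of its diet, with western diet mice left of the line and standard chow mice right of it. Standard chow mouse 5 is below its diet mean in 8 of the 9 rows, and the largest deviation is that of Nr4a3 in western diet cage 4 mouse 1, at 1.28.

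With each diet's mean removed, the deviations of the 9 genes were compared over the 10 libraries by Pearson correlation, as a description. The points share library preparation, depth and scaling. Over the 36 pairs of genes the median was 0.275, and 28 pairs were positive, whereas the median over all pairs of the 13747 tested genes of at least 1 CPM was 0. Leaving out 1 mouse at a time gave medians of 0.201 to 0.384. Among the 5 genes of at least 20 CPM, all 10 pairs were positive with a median of 0.554, and among the 26 pairs with a rarer gene 18 were positive with a median of 0.111. Npas4 and Arc were the closest pair (r = 0.789, Spearman's rho = 0.806). Egr1 and Nr4a1 followed (r = 0.718, rho = 0.648), then Egr1 and Arc (r = 0.657, rho = 0.612). The pooled values hide a difference in sign between the diets, with 5 mice in each. Among the 5 genes of at least 20 CPM, 5 of 10 pairs were positive within western diet and 10 of 10 within standard chow. The 4 pairs of Nr4a2 with Egr1, Nr4a1, Npas4 and Arc were negative within western diet and positive within standard chow. Over all 36 pairs, 19 were positive within western diet and 27 within standard chow, and whether the diets differ in this was not tested.

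The genes with the most similar deviations were sought among 10384 protein-coding genes of at least 5 CPM, 3 for each member. They were Cdyl (r = 0.957), Pcyt1a (r = 0.925) and Ndrg1 (r = 0.912) for Egr1, and Rb1 (r = 0.961), Zfp608 (r = 0.950) and Aldh4a1 (r = 0.936) for Nr4a1. For Npas4 they were Axin1 (r = 0.944), Rhob (r = 0.938) and Klf6 (r = 0.896), for Arc Grk2 (r = 0.951), Zbtb17 (r = 0.949) and Mnt (r = 0.943), and for Nr4a2 Tubb3 (r = 0.942), Akap8l (r = 0.940) and Wnk1 (r = 0.924). The 12 genes found for the 4 low members had r of 0.887 to 0.969. With so many genes searched over 10 libraries, values of this size were found for each member, low ones included. None of the 27 belonged to the pathway or related lists below, and 4 of the 27 (14.8%) were called between the diets, near the background of 10.8%. These were Rhob, a small GTPase gene (log2 -0.85, edgeR adjusted p = 2.8e-05), Klf6, a Kruppel-like factor gene (log2 -1.12, edgeR adjusted p = 0.00609), the neuronal tubulin gene Tubb3 (log2 -0.69, edgeR adjusted p = 0.0135) and Ndrg1 (log2 -0.30, edgeR adjusted p = 0.0324). The call of Ndrg1 was lost without western diet mice 4 or 5 of cage 4, the mouse of cage 2, or standard chow mice 1 or 3, with log2 values between -0.36 and -0.25 over all mice left out in turn.

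Genes that lead from calcium entry to these early genes were examined with their partners and other activity-regulated genes. With both directions pooled, they were called about as often as any gene, but more of the calls were lower than higher. The pathway lists were drawn up with results of the comparison known, so nothing is read from these shares or their direction. Over 6 lists with 103 genes, 101 were tested, of which 11 were called lower on western diet, 2 higher and 88 not called, a total of 13. That is 12.9% of those tested, beside 10.8% of all genes tested. By direction, 5.5% of all genes tested were called lower and 5.27% higher. The share called was 25% in the list of channel subunits and 23.8% among the other activity-regulated genes. In the remaining lists it was 0 to 12.5%. The median log2 fold change of the 101 was -0.06.

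Of the 12 genes of potassium and calcium channel subunits, 3 were called lower and 0 higher (median log2 -0.11). They were Cacna1a, the pore of the P/Q-type calcium channel (log2 -0.36 ± 0.09, SE, edgeR adjusted p = 0.0213), at 112 ± 11.1 CPM on western diet and 144 ± 18.8 CPM on standard chow, and the channel beta subunit genes Cacnb3 (log2 -0.17, edgeR adjusted p = 0.0331) and Cacnb2 (log2 -0.20, edgeR adjusted p = 0.0392). The fourth gene, Cacna2d1, had a log2 fold change of -0.15 (edgeR adjusted p = 0.0852). Each of these calls was lost with single mice left out. Cacna1a was no longer called when mouse 2 of western diet cage 4 was left out (log2 -0.30), Cacnb3 without mouse 1, 4 or 5 of that cage or standard chow mouse 1, 3 or 4 (log2 -0.19 to -0.16 over all mice left out), and Cacnb2 without mouse 1, 2 or 5 of cage 4, the mouse of cage 2 or standard chow mouse 1, 2 or 3 (log2 -0.23 to -0.18).

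Of 21 tested genes of calmodulin, its kinases, calcineurin and NFAT, edgeR called 0, as did DESeq2 and limma-voom, and 3 had an unadjusted p under 0.05 (median log2 -0.07). Those with the smallest p were Ppp3r1, the regulatory subunit of calcineurin (log2 0.12, edgeR adjusted p = 0.0998), Nfatc2 (log2 -0.17, edgeR adjusted p = 0.103), Calm2 (log2 -0.11, edgeR adjusted p = 0.169) and Camk2g (log2 -0.15, edgeR adjusted p = 0.218). Without standard chow mouse 5, Nfatc2 was called (log2 fold changes of -0.21 to -0.14 over all mice left out).

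Of 17 CREB regulators 1 was called lower and 1 higher (median log2 0.02). The coactivator gene Ep300 was lower (log2 -0.19 ± 0.05, SE, edgeR adjusted p = 0.0192), a call that needed mouse 2 of western diet cage 4, with log2 values of -0.20 to -0.17 over all mice left out. Sik3, a kinase gene whose product restrains CREB coactivators, was higher (log2 0.24 ± 0.07, SE, edgeR adjusted p = 0.0298), a call that was lost with mouse 2, 4 or 5 of western diet cage 4 left out, or standard chow mouse 1, 3, 4 or 5, with log2 values of 0.20 to 0.30. Sik1, a related kinase gene that is itself a CREB target, had 42.7 ± 7.99 CPM on western diet and 72.8 ± 23.1 CPM on standard chow without overlap (log2 -0.77 ± 0.23, SE, edgeR adjusted p = 0.0677), and was called by DESeq2 and limma-voom. Crebbp had a log2 fold change of -0.18 (edgeR adjusted p = 0.099).

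Of 24 genes of the ERK cascade and SRF, 3 were called lower and 0 higher (median log2 -0.02). Srf, which encodes the factor that binds CArG boxes, was lower (log2 -0.75 ± 0.11, SE, edgeR adjusted p = 0.0023), at 60.8 ± 5.81 CPM on western diet and 102 ± 17.8 CPM on standard chow with no overlap. Rps6ka5, which encodes a kinase of CREB and histone H3, was lower (log2 -0.59 ± 0.12, SE, edgeR adjusted p = 0.00558), at 6.31 ± 1.06 CPM on western diet and 9.53 ± 0.570 CPM on standard chow with no overlap. The kinase gene Braf was lower by less (log2 -0.24 ± 0.06, SE, edgeR adjusted p = 0.00958). These 3 calls held in all 18 alternative fits. Mkl1, an SRF coactivator gene, had a log2 fold change of 0.29 (edgeR adjusted p = 0.0502) and was called without western diet cage 4 mouse 1 or standard chow mouse 1, with log2 values of 0.24 to 0.35 over all mice left out.

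Of 6 tested genes of partners and corepressors of the members, edgeR, DESeq2 and limma-voom called 0, and 0 had an unadjusted p under 0.05 (median log2 0.04). Rxrb and Rxra, partners of Nr4a receptors, had log2 fold changes of 0.12 and 0.14 (edgeR adjusted p = 0.198 and 0.240), Arnt2, a partner of Npas4, of -0.15 (edgeR adjusted p = 0.359), and Nab1, a corepressor of Egr factors, of -0.07 (edgeR adjusted p = 0.566).

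Among 21 other genes known to be induced by activity, 4 were called lower and 1 higher (median log2 -0.26), with 8 called by DESeq2 and 8 by limma-voom. Dusp4, a phosphatase gene that feeds back on ERK, was lower (log2 -0.63 ± 0.12, SE, edgeR adjusted p = 0.00797, no overlap) in this and all 18 alternative fits. Ifrd1 (log2 -0.29, edgeR adjusted p = 0.0182) and Trib1 (log2 -0.28, edgeR adjusted p = 0.0315) were lower, and the granin gene Scg2, a secretory granule protein, was higher (log2 0.29 ± 0.07, SE, edgeR adjusted p = 0.0116). Ifrd1 was no longer called when mouse 5 of western diet cage 4 was left out (log2 -0.34 to -0.23 over all mice left out), nor Trib1 without mouse 1 or 5 of that cage, the mouse of cage 2 or standard chow mouse 1, 2 or 3 (log2 -0.33 to -0.23). The fourth lower gene, named after its values were seen, was Gem, a small GTPase gene that acts on calcium channels (log2 -0.88, edgeR adjusted p = 0.0461). It was no longer called without mouse 1, 4 or 5 of western diet cage 4, the mouse of cage 2, or standard chow mouse 1, 2, 3 or 4, with log2 values of -0.99 to -0.76.

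The lists most like the members are other early genes. Of 8 AP-1 genes, which encode the Jun and Fos factors of the same immediate early response, 7 were called lower and 0 higher (median log2 -0.87), beside 5.5% of all genes tested called lower. Jun had the largest (log2 -1.02 ± 0.06, SE, edgeR adjusted p = 1.1e-07) of the 4 named, with Jund (log2 -0.89, edgeR adjusted p = 0.00536), Junb (log2 -0.55, edgeR adjusted p = 5.8e-04) and Fos (log2 -0.47, edgeR adjusted p = 2.7e-04). Of 11 Ier, Btg, Zfp36 and Gadd45 genes, feedback and growth-arrest genes of the early response, 8 were called lower and 0 higher (median log2 -0.33), beside the same 5.5%. Here Zfp36, which encodes a protein that speeds mRNA decay, had log2 -0.75 (edgeR adjusted p = 6.3e-04), Ier2 -0.59 (edgeR adjusted p = 2.7e-05), Btg2 -0.48 (edgeR adjusted p = 2.8e-05) and Zfp36l2 -0.37 (edgeR adjusted p = 0.00347). These lists, too, were drawn up with results of the comparison known, and whether they differ from the 9 members was not tested.

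**Figure D4:**
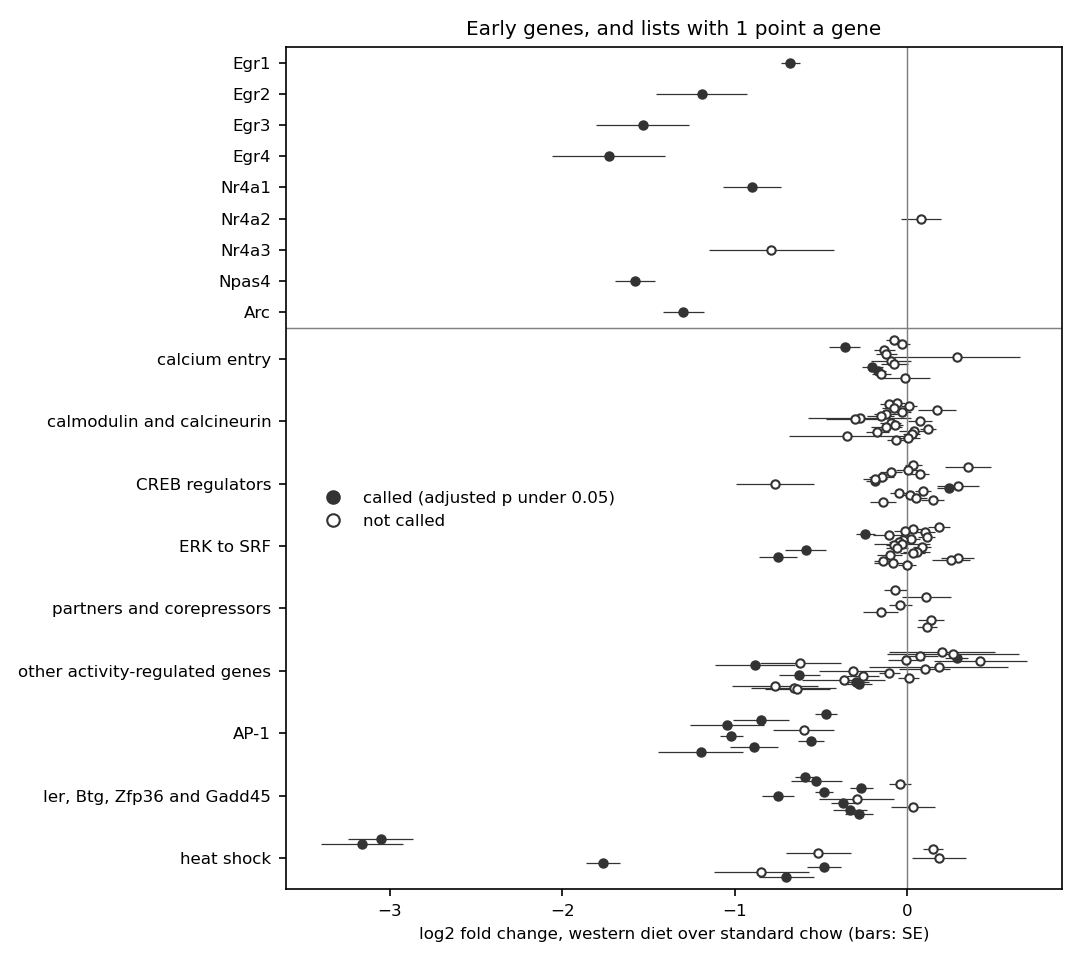
Log2 fold change, western diet over standard chow, with its SE, of each of the 9 genes (rows above the line) and of each gene in the lists of pathway, related early and heat shock genes; filled points were called. The 9 genes reach -1.73 (Egr4), while most of the 101 pathway genes lie near 0, with a median of -0.06.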

How the data were processed

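The authors deposited 1 table of 27665 genes with read counts per gene in 10 libraries, which per the file headers are raw and which proved to be whole numbers. The same deposited table holds the authors' FPKM values, read here only to compare the order of levels, and 10 columns of normalized values that were not used. The submitters' processing notes name STAR 2.5, HTSeq 2, DESeq2, mm10 and GRCm38. Per the labels' protocols an NEBNext Ultra kit was used. Whether reads were counted by strand is not stated in what was used here. None of the 9 genes has another GENCODE M21 gene overlapping it or within 1 kb.

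The members and all lists were chosen with earlier results of these data known. Counts were tested with edgeR 4.0.16 (R 4.3.3, robust quasi-likelihood test, TMM factors, filterByExpr with a minimum count of 10, 15104 genes, no covariate), with Benjamini-Hochberg adjustment over all genes tested and calls at an adjusted p under 0.05. An SE is the log2 fold change over the root of the F statistic. CPM use TMM factors, and TPM use the counts and the gene length of the table. Deviations are log2 CPM (prior count 2) minus the mean of the diet. Genes outside the 9 members are named by a rule: up to 4 per list with the smallest p, those of at least 1 CPM first, 3 per member with the highest correlation of deviations, and Ins2 and Slc2a2. Marker and heat shock genes called in a list, Hspa8, Hsp90aa1 and Gem were named after their values were seen. The test was checked on simulated counts. The alternatives were DESeq2 1.42.0, limma-voom (limma 3.58.1), RLE and upper quartile factors, no filter, a filter at 5 CPM, mouse number as a block, a prior count of 0.5, and each mouse left out in turn; leaving out the western diet mouse of cage 2 and standard chow mouse 1 together was chosen after seeing the data.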

Additional observations from a re-analysis of the deposited data

Results flagged for a closer look

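A library far from the other 4 of its diet, by Dixon's criterion for 5 values (0.71), was found in 5 of 90 groups examined, and chance gives about 1 in 20. Nr4a3 had 1.97 CPM in western diet cage 4 mouse 1, against 0.398 to 0.795 CPM in the other western diet mice. Rps6ka5 had 8.16 CPM in the western diet mouse of cage 2, against 5.58 to 6.17 CPM in the others of its diet. Sik3 had 140.5 CPM in standard chow mouse 2, against 124 to 127 CPM in the others. Crebbp had 89.6 CPM in standard chow mouse 1, against 69.9 to 72.0 CPM in the others. Zfp36l2 had 103 CPM in standard chow mouse 5, against 119 to 125 CPM in the others.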

How the results depend on the processing

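Of 52 genes followed through 18 alternative fits, 34 kept both their side of the threshold and their sign in each fit that tested them. Nr4a2 is not among the 34: it was called in 0 of the 18 fits, but its sign reversed in 2. Egr1, Egr2, Egr3, Egr4, Nr4a1, Npas4 and Arc kept their call wherever they were tested. The filter at 5 CPM left 5 members tested and 4 called. The members were chosen by this same comparison and the fits reuse its counts, so nothing is read from calls of members that held. The number of members called was 7 to 8 with each mouse left out, the 8 arising without western diet cage 4 mouse 1, and 7 under the other fits. The log2 fold change of Nr4a2 was -0.00917 to 0.141 with each mouse left out, with -0.00917 without western diet cage 4 mouse 4 and -0.00343 without standard chow mouse 5. Over all genes 1627 were called, and 938 to 1813 with each mouse left out (938 without standard chow mouse 1, 985 and 1055 without western diet cage 4 mice 4 and 5, 1050 without standard chow mouse 3). The 13 pathway genes called became 20 with DESeq2 and 7 to 14 with each mouse left out, with 7 without western diet cage 4 mouse 5 and 8 without standard chow mouse 3. The median correlation of deviations was 0.201 to 0.384 with each mouse left out. With mouse number as a replicate block, 841 genes were called, 499 of them lower, with 7 members and 7 pathway genes. The numbers name separate animals in separate cages, and same-numbered mice had correlations of -0.129 to 0.0483, so they do not pair the samples. The cause of these changes was not tested. Depth limits Egr2, Egr3, Egr4 and Nr4a3, with few reads per library.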
